A study of Mus musculus with 6 samples.

Results

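The entry of a cell into DNA synthesis is set by the G1 cyclins, the kinases they switch on and the small proteins that inhibit those kinases. This account covers 10 such genes: the cyclin genes Ccnd1, Ccnd2, Ccnd3, Ccne1 and Ccne2, the kinase genes Cdk4 and Cdk6, and the inhibitor genes Cdkn1b, Cdkn2a and Cdkn2b. They were taken by name, and each was read from the probe set that the array annotation pairs with that symbol alone, the brightest one where there were several. All 10 were measured, among 19933 genes in all. The study compared 4T1 cells, a line derived from a BALB/c mouse mammary carcinoma, before and after selection with methotrexate (MTX), an antifolate that starves cells of nucleotides. WTR- cells were the untreated line, with 3 arrays. MR13 cells, also with 3 arrays, were a line grown from the 4T1 cells that outlived MTX, for which the labels state 13 µg/ml for up to 2 weeks. The text of the study describes a much lower dose, just above the IC50 and given for longer, after which the survivors were moved to drug-free medium. That IC50, converted to mass, is near the label's number taken as ng/ml, so the dose is uncertain and its unit in the labels may be wrong. All samples were cultured cells of the same line, and the arrays of a line came from triplicate wells. The text of the study calls them 3 biological replicates. Every p below thus measures the spread between such samples of 1 selected line and of its parent, not between separate selections.

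In G1, mitogens raise the D-type cyclins, which bind CDK4 or CDK6 and begin to phosphorylate the retinoblastoma protein RB and its relatives p107 and p130. E2F factors released from these pocket proteins switch on the E-type cyclins, which drive CDK2 and complete the step into S phase. Inhibitors of the INK4 family, such as the products of Cdkn2a and Cdkn2b, bind CDK4 and CDK6, while those of the CIP/KIP family, such as p27 from Cdkn1b, act mainly on cyclin-CDK2 complexes. Much of this control acts on protein stability and phosphorylation, which arrays of RNA do not measure.

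The values were log2 array signals, in which a difference of 1 is a 2-fold change. Over all probe sets the arrays correlated at r = 0.9980 to 0.9987 within a group and at r = 0.984 to 0.987 between groups, and no array stood apart or repeated another. The 10th percentile of gene signals lay between 4.01 and 4.07 on the arrays. Of the epithelial markers checked, all 6 were measured and none was at the dim end, and Krt8 was bright in both lines (13.41 in WTR-, 13.53 in MR13), while the other 5 were lower in MR13, among them Epcam by 4.30 on the log2 scale and Cdh1 by 3.24. Their summed linear signal ran from 30210 to 31990 in WTR- and from 19270 to 20930 in MR13. None of 7 leukocyte and 4 endothelial markers was called (summed signals 252.4 to 261.1 and 136.5 to 151.3 in WTR-, 249.9 to 256.9 and 146.5 to 151.4 in MR13), and 6 and 3 of them lay in the dimmest 30% of genes. Of 5 fibroblast markers, Pdgfra and Dcn were higher in MR13 (log2 differences 1.82 and 1.70), Lum, Col1a1 and Col1a2 were not called, and the summed signal rose from 622.8 to 649.0 in WTR- to 1459 to 1667 in MR13. The part of these marker differences in the results below was not tested.

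Of the 10 genes, 5 differed between the lines by limma at an adjusted p under 0.05, the threshold for a call here. Cdk6 and Ccnd1 were higher in MR13, and Ccnd2, Cdk4 and Cdkn1b were lower. Ccnd3, both E-type cyclins and both INK4 genes were not called. Across all genes tested, 37.6% were called, 17.0% higher and 20.6% lower in MR13, so a call by itself was common on these arrays. That share includes dim genes, whereas no member fell below the 48.68th percentile of gene signals on any array. The share of members called is therefore not set against it as a like comparison. The values of the 3 MR13 arrays all lay outside the WTR- range for 6 of the 10 genes, the 5 called and Ccne1, beside 47.4% of all genes. One member, Ccnd2, was called with a difference of at least 2-fold, beside 4.06% of all genes. The median difference of the 10 was 0.03 on the log2 scale, and that of all genes 0.01. The median size, ignoring sign, was 0.18 and 0.13 respectively.

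**Figure D1:**
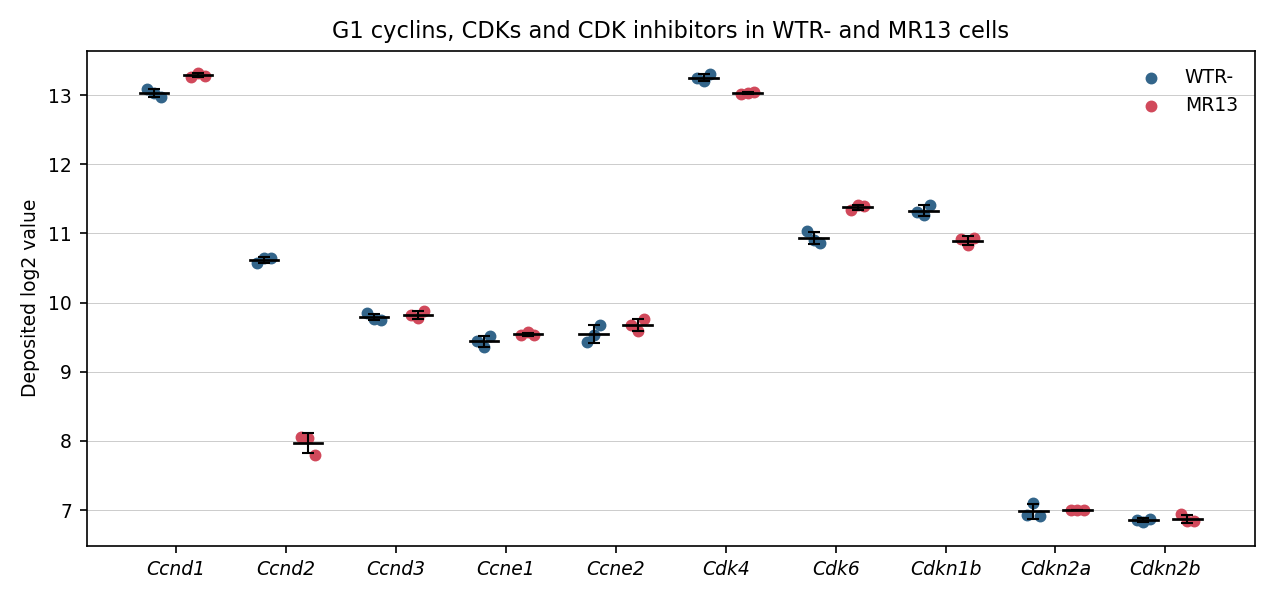
Log2 signal of each of the 10 genes (y axis) on the 3 WTR- and the 3 MR13 arrays, with each point an array, the horizontal bar the group mean and the whisker the SD. Ccnd2 falls from a WTR- mean of 10.62 to an MR13 mean of 7.97, while the points of Ccnd3, Ccne2, Cdkn2a and Cdkn2b overlap between the lines.

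Ccnd2, the cyclin D2 gene, carried by far the largest difference of the 10. Its log2 signal was 10.57, 10.65 and 10.64 on the WTR- arrays and 8.06, 8.04 and 7.80 on the MR13 arrays. Every MR13 array thus lay far below every WTR- array, and the spread within a line was small next to the gap. The means were 10.62 ± 0.05 and 7.97 ± 0.14 (SD, n = 3 each), a log2 difference of -2.65 (SE 0.08, 95% interval -2.83 to -2.48), or 6.29-fold lower in MR13 (adjusted p = 3.33e-08 by limma). It ranked 89th by size of difference among the 19933 genes. On the array as a whole, Ccnd2 moved from as high as the 90.4th percentile of gene signals in WTR- to as low as the 58.5th in MR13, so it stayed above the middle of the array in both lines.

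Of the other D-type cyclin genes, 1 was called higher and 1 was not called. Ccnd1, the cyclin D1 gene and a target of growth factor and Wnt signalling, read 13.09, 13.03 and 12.97 in WTR- and 13.27, 13.31 and 13.28 in MR13. It was thus slightly higher on every MR13 array, with means of 13.03 ± 0.06 and 13.29 ± 0.02 (SD, n = 3 each), a difference of 0.26 (SE 0.05, 95% interval 0.13 to 0.38), or 1.19-fold (adjusted p = 0.00427). Its signal lay between the 99.47th and the 99.73rd percentile of genes on all arrays. Ccnd3, the cyclin D3 gene, read 9.85, 9.77 and 9.76 in WTR- and 9.82, 9.77 and 9.88 in MR13. Those arrays overlapped, and the difference of 0.03 (SE 0.06, adjusted p = 0.70) had a 95% interval of -0.09 to 0.16.

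The E-type cyclins, which act after the D-type cyclins and bind CDK2, were not called. Ccne1 read 9.45, 9.36 and 9.51 in WTR- and 9.53, 9.57 and 9.52 in MR13. The groups touched without overlapping, and the difference was 0.10 (SE 0.06, 95% interval -0.03 to 0.23, unadjusted p = 0.108 and adjusted p = 0.21 by limma). Ccne2 read 9.43, 9.54 and 9.67 in WTR- and 9.68, 9.59 and 9.76 in MR13. One MR13 array fell within the WTR- range, and the difference was 0.13 (SE 0.08, 95% interval -0.04 to 0.30, unadjusted p = 0.122 and adjusted p = 0.23). Neither gene would pass at an unadjusted p under 0.05.

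The kinase genes of the D-type cyclins went in opposite directions. Cdk4 read 13.25, 13.20 and 13.30 in WTR- and 13.02, 13.03 and 13.04 in MR13. All MR13 arrays lay below all WTR- arrays, with a difference of -0.22 (SE 0.05, 95% interval -0.34 to -0.10), or 1.17-fold lower (adjusted p = 0.00771). Cdk6 read 11.03, 10.90 and 10.87 in WTR- and 11.33, 11.40 and 11.39 in MR13. It was higher on every MR13 array, by 0.44 (SE 0.06, 95% interval 0.31 to 0.58), or 1.36-fold (adjusted p = 0.000355). Cdk4, like Ccnd1, was among the brightest genes of the array, and its change was the smallest of the 5 called.

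Cdkn1b, which encodes the inhibitor p27, was lower in MR13. Its brighter probe set read 11.31, 11.27 and 11.42 in WTR- and 10.92, 10.83 and 10.94 in MR13. The lines did not overlap, and the difference was -0.43 (SE 0.06, 95% interval -0.57 to -0.29), or 1.35-fold lower (adjusted p = 0.000447). A second probe set, the only other one for any of the 10 genes, read 8.47, 8.40 and 8.58 in WTR- and 7.88, 7.73 and 7.93 in MR13, a difference of -0.64 (SE 0.07, adjusted p = 0.000262 over all probe sets). Both probe sets therefore gave a lower signal on every MR13 array than on any WTR- array.

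The INK4 genes Cdkn2a and Cdkn2b lie side by side. Cdkn2a encodes both INK4A and the ARF protein, which stabilises p53, and its transcripts share exons. Cdkn2a read 6.92, 7.10 and 6.92 in WTR- and 6.9996 on each of the 3 MR13 arrays, where the deposited value was the same to the last digit. Such identical values across a whole line were held by 62 of 28350 probe sets in MR13 and by 67 in WTR-, so the small spread of this gene in MR13 cannot be read as precision. The difference was 0.02 (SE 0.06, 95% interval -0.13 to 0.16, unadjusted p = 0.791 and adjusted p = 0.87 by limma). Cdkn2b read 6.86, 6.82 and 6.88 in WTR- and 6.94, 6.84 and 6.84 in MR13, a difference of 0.02 (SE 0.05, 95% interval -0.11 to 0.14, unadjusted p = 0.759 and adjusted p = 0.85 by limma), and the lines overlapped. Both genes sat near the middle of the array, between the 48.7th and the 51.2nd percentile of gene signals. No detection calls were used, so whether these signals are above background is not known.

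**Figure D2:**
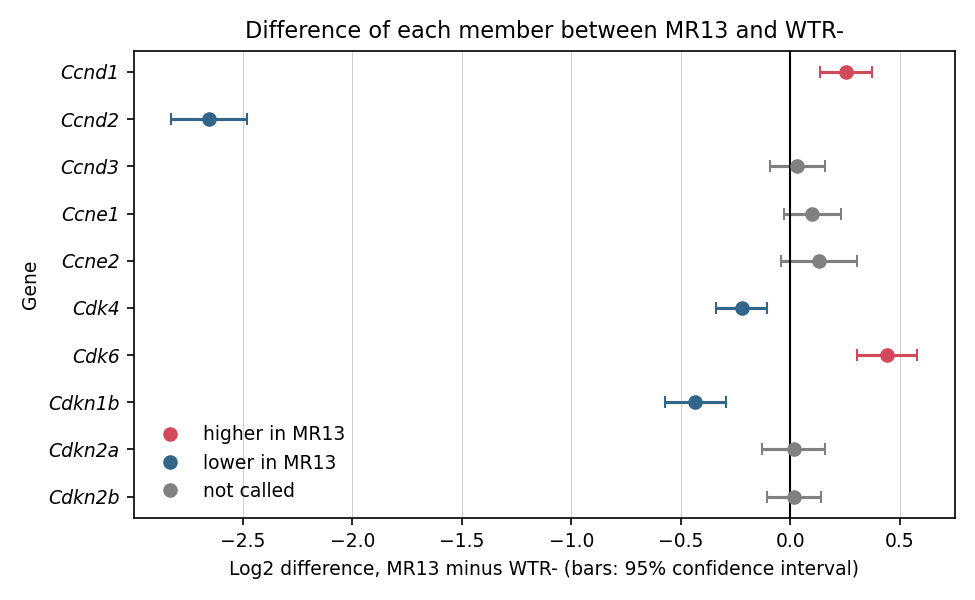
Log2 difference (MR13 minus WTR-) of each of the 10 genes, with the 95% interval from limma as a horizontal bar, red where called higher, blue where called lower and grey where not called. The interval of Ccnd2 runs from -2.83 to -2.48, those of Cdkn1b and Cdk4 also lie below 0, those of Cdk6 and Ccnd1 above 0, and the other 5 include 0.

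The differences between family members were also taken within each array, which cancels the scaling of that array. The brightness of a probe set depends on its probes, so the ratio itself is not one of transcript numbers and only its change between lines is read. With 3 arrays against 3 the exact permutation test (two-sided) cannot give a p below 0.1, so none of the 6 pairs tested could reach 0.05. The log2 ratio of Ccnd1 over Ccnd2 moved from 2.41 ± 0.10 to 5.32 ± 0.14 (SD, n = 3 each, exact permutation p = 0.1, adjusted p = 0.15 over 6 pairs), a change of 2.91 or 7.51-fold. The ratio of Ccnd2 over Ccnd3 moved by -2.69 with the same p, from 0.83 ± 0.10 to -1.86 ± 0.19. That of Ccnd1 over Ccnd3 moved by 0.22, also with the same p, from 3.24 ± 0.02 to 3.46 ± 0.07. The ratio of Cdk4 over Cdk6 fell by 0.67 on the log2 scale, from 2.32 ± 0.11 to 1.65 ± 0.03, a 1.59-fold shift toward Cdk6, again with exact permutation p = 0.1. For these 4 pairs the arrays of the lines did not overlap. Ccne1 over Ccne2 moved by -0.03 (exact permutation p = 0.7) and Cdkn2a over Cdkn2b by less than 0.01 (exact permutation p = 1), both within the spread between arrays.

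**Figure D3:**
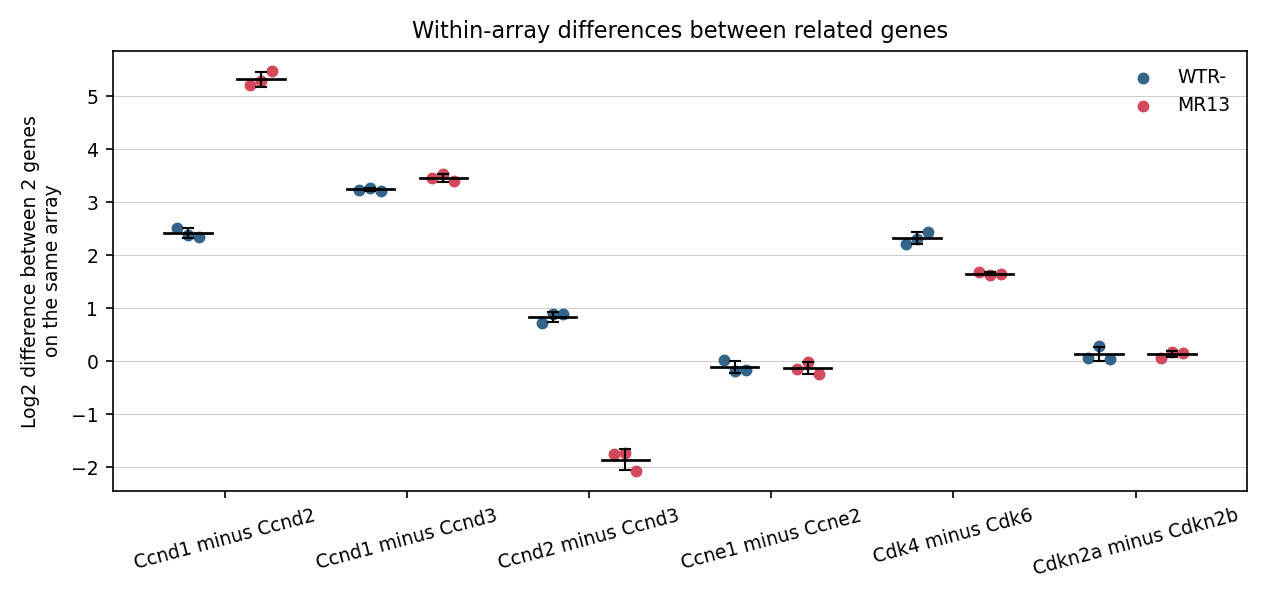
Log2 signal difference between 2 members of a family on the same array, for 6 pairs, with each point an array of WTR- or MR13, the bar the group mean and the whisker the SD. The difference of Ccnd1 minus Ccnd2 rises from a mean of 2.41 to 5.32 and that of Cdk4 minus Cdk6 drops from 2.32 to 1.65, while the points of Ccne1 minus Ccne2 and of Cdkn2a minus Cdkn2b overlap.

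The 250 bases before the annotated transcription start of the members were searched for short motifs on both strands. The RefSeq promoter table (GRCm38.p6) held 7 of the 10 genes at 9 start sites, with no entry for Ccnd1, Ccnd2 and Ccne2. The 3 called genes it held are shown, since they moved in different directions: both kinase genes with the E-box CACGTG in capitals, the element that MYC and related factors bind, and Cdkn1b with CCAAT in capitals, the box that NF-Y binds.
Cdk4, chr10:127063285-127063534, plus strand: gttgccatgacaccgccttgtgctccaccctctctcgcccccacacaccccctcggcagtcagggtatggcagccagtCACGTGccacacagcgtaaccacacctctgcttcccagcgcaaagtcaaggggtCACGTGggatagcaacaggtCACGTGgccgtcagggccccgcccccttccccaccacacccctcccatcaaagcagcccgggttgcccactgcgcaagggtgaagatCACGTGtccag
Cdk6, chr5:3343643-3343892, plus strand: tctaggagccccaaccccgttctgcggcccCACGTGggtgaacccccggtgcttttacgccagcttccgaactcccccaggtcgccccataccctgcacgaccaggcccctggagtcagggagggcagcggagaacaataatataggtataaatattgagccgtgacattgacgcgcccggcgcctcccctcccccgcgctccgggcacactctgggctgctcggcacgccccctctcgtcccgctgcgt
Cdkn1b, chr6:134920151-134920400, plus strand: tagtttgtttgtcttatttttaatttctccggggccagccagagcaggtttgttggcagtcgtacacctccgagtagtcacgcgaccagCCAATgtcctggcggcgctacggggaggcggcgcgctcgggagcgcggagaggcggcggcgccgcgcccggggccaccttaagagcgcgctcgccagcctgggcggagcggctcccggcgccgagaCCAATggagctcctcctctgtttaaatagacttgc
The Cdk4 window held 4 copies of CACGTG and the Cdk6 window 1, and the other members' windows held none. Of 32851 windows of the same length, 6.02% held at least 1 copy and 7 (0.0213%) held 4 or more. The Cdkn1b window held 2 copies of CCAAT, which 33.8% of windows held at least once. A copy of CCAAT was also found at 1 start site of the uncalled Ccnd3. A match of letters is a description of the window and not a binding site, and any link between motifs and differences was not tested. TGTTTAC was found at 1 of the start sites of Ccnd3 (3.17% of all windows) and GGGCGG at 6 of the 9 start sites (32.7%). TGACGTCA was found at Cdkn2b (1.55%) and TTTCCCGC at 1 start site of Cdkn2a (0.895%). TTTGGCGC, TTTCGCGC, TTCNNNGAA and TGAGTCA were in none of the 9 windows.

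Around these 10 genes, 111 genes of the same pathway and of the Cdkn2a locus were listed, of which 108 were measured. In MR13, 39 of them were higher and 24 lower, and 45 were not called, that is 58.3% called beside 37.6% of all genes. Their median difference was 0.05, beside 0.01 for all genes, and 1 of them, Id1, was called at 2-fold or more. The lists were chosen with earlier results of these data known, and the share over all genes includes dim ones. When the dimmest 30% of genes were left out, 67 listed genes and 7640 of the remaining genes were called. That is more calls than the 7497 among all 19933 genes, from fewer genes, so the share called rose. The shares of 58.3% and 37.6% are thus not a like comparison and are not read as a result about the pathway. With RNA from a whole culture, the share of cells in a phase and the RNA per cell cannot be told apart.

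The pocket proteins and E2F factors moved in both directions. Rb1, the gene of RB, read 8.05, 7.998 and 8.02 in WTR- and 8.92, 8.86 and 8.92 in MR13, an increase of 0.88 (SE 0.05) or 1.84-fold (adjusted p = 1.89e-06). Rbl1, which encodes p107, rose by 0.22 (adjusted p = 0.00736), while Rbl2, which encodes p130, was lower by 1.38-fold (log2 difference -0.47, adjusted p = 8.54e-05). All 3 pocket protein genes were thus called, 2 higher and 1 lower. Of 10 E2F and DP genes, 2 rose and 3 fell (50% called). Across all genes tested, dim ones included, 37.6% were called. E2f1, an activator of S phase genes, rose by 0.48 (adjusted p = 0.000236), and the repressors E2f4 and E2f6 differed by -0.55 (adjusted p = 2.87e-05) and -0.80 (adjusted p = 6.66e-06). E2f5, also a repressor, differed by -0.26 (adjusted p = 0.00674).

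Downstream, 12 of 22 E2F target genes of the G1/S step rose and 4 fell, with a median of 0.22. Among all genes tested, dim ones included, 17.0% were higher and 20.6% lower. The text of the study reports a lower proliferative capacity in culture for the selected line than for its parent. Whether the differences in these target genes relate to that growth was not tested. Rrm2, a subunit of ribonucleotide reductase, rose by 0.65 (adjusted p = 1.04e-05), the replication licensing genes Cdc6 and Mcm6 by 0.56 and 0.36 (adjusted p = 5.42e-05 and 0.000418), whereas Cdt1, another licensing factor, differed by -0.47 (adjusted p = 0.000304). Of 9 genes of the CDK2 complex and its activators, 3 rose and 3 fell (66.7% called, beside 37.6% of all genes). Cdk2, the partner of the E-type cyclins, read 10.00, 9.96 and 9.99 in WTR- and 9.43, 9.49 and 9.54 in MR13, a difference of -0.50 (SE 0.05, adjusted p = 7.97e-05). The activating phosphatases Cdc25b and Cdc25c rose by 0.57 and 0.48 (adjusted p = 5.57e-05 and 0.000166). Cdk7, of the CDK-activating kinase, differed by -0.44 (adjusted p = 0.0014) on its brighter probe set, from a mean of 8.85 to 8.41. The other probe set differed by 0.34, from 5.36 to 5.70, near the cutoff of the dimmest 30% of genes (5.51). Its direction is therefore not settled.

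Of 5 other CDK inhibitor genes listed, 4 were measured and 3 rose: the INK4 genes Cdkn2d (from 7.96 to 8.47, a difference of 0.51, SE 0.06, adjusted p = 0.000175) and Cdkn2c (0.18, adjusted p = 0.0164), and the CDK-associated phosphatase Cdkn3 (0.32, adjusted p = 0.00306). Cdkn1c, the p57 gene of the CIP/KIP family, differed by 0.03 (adjusted p = 0.72). The share called was 75% of these 4 genes, beside 37.6% of all genes, dim ones included. Cdkn1a, the p21 gene, was not analysed here because its probe set is paired with several symbols. Of 14 genes for the turnover of p27 and of cyclins, 2 rose and 4 fell (42.9% called). Ambra1 and Cul3, which belong to ubiquitin ligases for cyclins D and E, rose by 0.37 and 0.26 (adjusted p = 0.00171 and 0.00481). Skp2, the F-box protein that marks p27 for destruction, differed by -0.16 (adjusted p = 0.0444), a call that was lost when any array was left out, and its cofactor Cks1b differed by 0.02 (adjusted p = 0.75). Cops5, of the COP9 signalosome, and Cul1 differed by -0.24 and -0.19 (adjusted p = 0.0191 and 0.0201).

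Of 21 transcription factors known to act on the cyclin D and inhibitor genes, 11 rose and 5 fell. That is 76.2% called, beside 37.6% of all genes, dim ones included, and the list was chosen with earlier results known. Id1, an inhibitor of basic helix-loop-helix factors, rose 2.14-fold (log2 difference 1.10, adjusted p = 9.43e-07). Foxo1, a factor that raises Cdkn1b and lowers Ccnd1 and Ccnd2 in many cells, rose by 0.73 (adjusted p = 0.000121), and Smad3, of the TGF-β pathway, by 0.70 (adjusted p = 1.33e-05). Myc, which binds E-boxes and activates Ccnd2 and Cdk4, read 12.28, 12.26 and 12.26 in WTR- and 11.45, 11.42 and 11.42 in MR13, a difference of -0.84 (SE 0.05) or 1.79-fold lower (adjusted p = 1.76e-06).

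The Polycomb group represses the Cdkn2a locus. Of its genes and those of its opponents, 12 were measured, of which 2 rose and 3 fell. That is 41.7% called, beside 37.6% of all genes, dim ones included. Kdm6b, a demethylase that removes the Polycomb mark, rose by 0.49 (adjusted p = 0.000133), while Ring1, Kdm2b and Ezh2 differed by -0.27, -0.23 and -0.18 (adjusted p = 0.0128, 0.0101 and 0.0298). Of 13 genes listed by name as neighbours of Cdkn2a and Cdkn2b, 2 rose, 1 fell and 10 were not called. Mllt3 and Hacd4 rose by 0.51 and 0.30 (adjusted p = 7.62e-05 and 0.0148) and Klhl9 differed by -0.21 (adjusted p = 0.0132). Mllt3 and Hacd4 lay outside the 10 tested genes on each side of Cdkn2a. Of those 20 nearest genes, 2 were higher, 1 lower and 17 not called, with differences from -0.24 (Lrrc19) to 0.29 (Ift74). Mtap, which is deleted together with Cdkn2a in many tumours, was bright in both lines at 12.48 ± 0.02 and 12.54 ± 0.02 (SD, n = 3 each), with a difference of 0.06 (95% interval -0.05 to 0.17, adjusted p = 0.40).

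**Figure D4:**
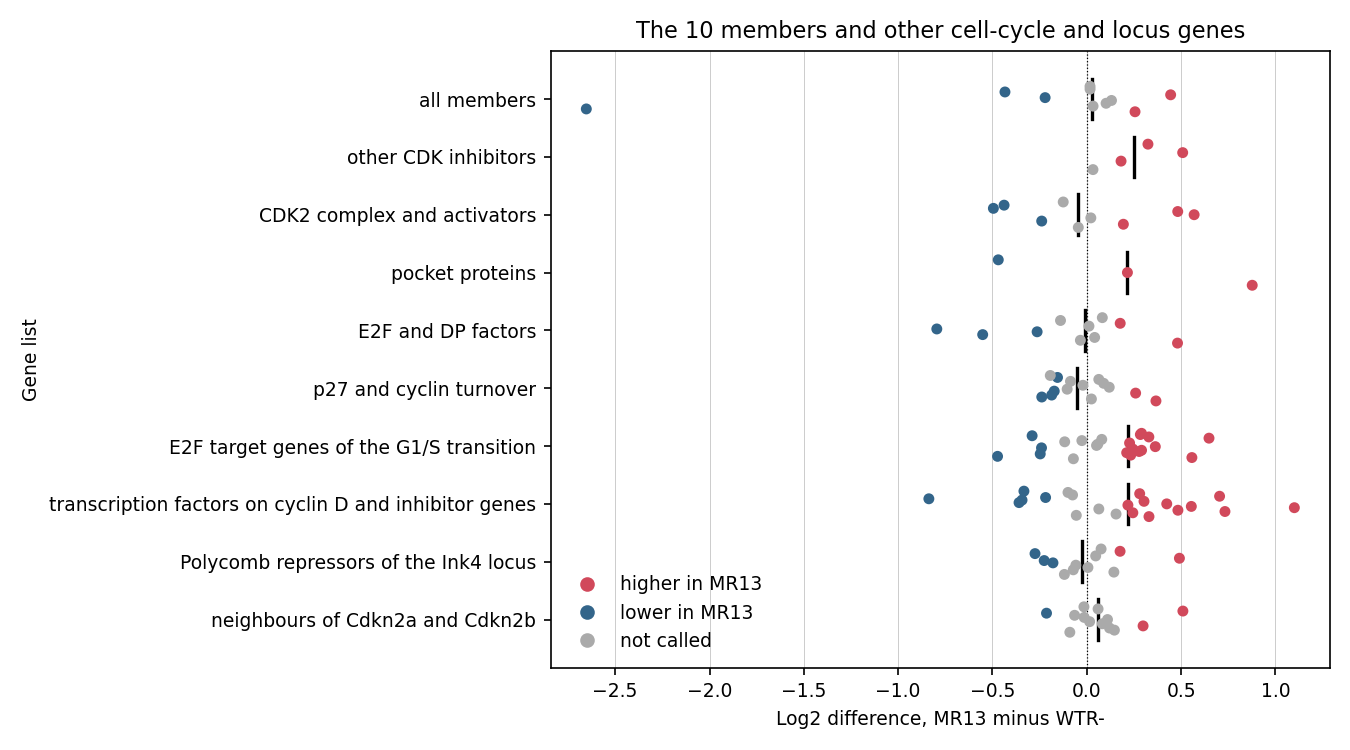
Log2 difference (MR13 minus WTR-) of the 10 members and of the 108 measured genes in 9 lists around them, with each point a gene (red called higher, blue called lower, grey not called) and the vertical bar the median of the list. Outside the members, Id1 (1.10) and Rb1 (0.88) lie highest and Myc (-0.84) and E2f6 (-0.80) lowest, and Ccnd2 (-2.65) lies apart from all of them.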

How the data were processed

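Total RNA of cultured 4T1 cells, 3 WTR- and 3 MR13 samples, was hybridised to Affymetrix Mouse Gene 1.0 ST arrays. The authors deposited 1 table of normalized log2 values, without detection calls. The submitters' processing notes name affy and limma, and their versions, the background correction and the summarization are not given in the sources used here. Of 28350 probe sets, 21780 were paired with 1 symbol, 1618 with several and 4952 were unnamed here. The brightest probe set per gene left 19933 genes. Names were checked against RefSeq (82 genes without a match). The table held 0 columns from other series.

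MR13 was compared with WTR- by limma 3.58.1 in R 4.3.3 (lmFit and eBayes, no covariate, two-sided), with Benjamini-Hochberg adjustment over all 19933 genes. Differences between family members within an array were tested by exact permutation. The script was tested on simulated data. The genes named were the 10 members, at most 4 of each list by size of difference among called genes whose groups did not overlap, and a few fixed regulators. Other genes were named after their values were seen, as the text says. The members and lists were chosen with earlier results of these data known. Alternatives covered quantile normalization, median centring, a filter on dim genes, all probe sets or their mean, a trended robust prior, a replicate block, each array left out, the methods' t-test and a 1.5-fold minimum. The number of arrays limits the precision.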

Additional observations from a re-analysis of the deposited data

How the results depend on the processing

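The 5 calls among the 10 genes, 2 higher and 3 lower in MR13, held under every alternative run on them except a 1.5-fold minimum, and these 5 genes kept their direction. The uncalled Cdkn2a and Cdkn2b, both 0.02 on the log2 scale, changed sign near 0: Cdkn2a to -0.01 without WTR- replicate 1 or WTR- replicate 3, and Cdkn2b to -0.02 without MR13 replicate 1. The methods' t-test called the same 5 genes, and 5 members passed at an unadjusted p under 0.05 by it. The minimum left 1 call (Ccnd2), 0 higher and 1 lower, with 2193 of all genes and 7 of the listed pathway genes. Over the alternatives the log2 difference lay between -2.70 and -2.57 for Ccnd2, 0.23 and 0.33 for Ccnd1, -0.24 and -0.15 for Cdk4, 0.41 and 0.49 for Cdk6, and -0.54 and -0.39 for Cdkn1b. The weakest values of Cdk4 and the strongest of Ccnd1 came with quantile normalization, which moved the share of calls that were higher from 45.2% to 50.7%. Same-numbered samples deviated together weakly or not at all (r = 0.075, 0.0001 and 0.19 for replicates 1, 2 and 3). Replicate 3 of each line was nevertheless the best match of the other, so whether the numbers pair the samples is not settled. With the replicate block, 5 members (2 higher, 3 lower), 7442 genes and 61 pathway genes were called. Of the 37 pathway genes named under a rule, 9 changed their call under some alternative and none reversed: Cdk7 (mean of its probe sets, -0.05, adjusted p = 0.54), Skp2, Cul1, Cops5, Cdkn2c, Ezh2, Hacd4 and Ring1 lost it, and Mtap gained it with quantile normalization (0.14, adjusted p = 0.044). Skp2 lost it without any 1 array, Cul1 without WTR- replicate 1 or MR13 replicates 2 or 3, Cops5 without WTR- replicate 3 or MR13 replicates 1 or 2, Cdkn2c without WTR- replicate 2 or MR13 replicate 3, Ezh2 without WTR- replicates 1 or 2 or MR13 replicates 1 or 3, and Hacd4 without WTR- replicate 1. Skp2 also lost it with median centring, with all probe sets fitted and with the replicate block, and Ezh2 with the replicate block. Cops5, Hacd4 and Ring1 lost it by the methods' t-test. The cause was not tested.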

Other observations

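The 10 tested genes on each side of a member along its chromosome were described after the values of the members had been seen. Of the 20 genes around Ccnd2, 5 were higher, 5 lower and 10 not called in MR13, with a median log2 difference of -0.01. The genes next to it, Tigar and Parp11, were called, at -0.37 and -0.33. Those 20 genes ran from -0.67 (Ndufa9) to 1.33 (Tspan11). Of the 20 around Cdkn1b, on the same chromosome, 3 were higher, 8 lower and 9 not called, with a median of -0.11. The genes next to it were Gpr19 (0.29, called) and Apold1 (0.17, not called). Between Ccnd2 and Cdkn1b lay 95 tested genes, of which 12 were higher and 8 (8.42%) lower, with a median of -0.01. Around Cdk4, 2 were higher and 9 lower, with a median of -0.14. Mettl1 (-0.95) and Marchf9 (-0.92) were among the lower ones, and Ctdsp2 (0.31) lay highest. Around the uncalled Ccne2, with differences from -5.50 (Esrp1) to 1.55 (Trp53inp1), 3 were higher and 7 lower, and around Ccne1 1 and 6. For Ccnd3 these counts were 2 and 2, and for Cdkn2a and Cdkn2b each 2 and 1. Around the genes called higher they were 1 and 3 of 14 for Ccnd1, and 1 and 1 of 10 for Cdk6. The genes around Ccnd1 ran from -1.57 (Ano1) to 1.42 (Mrgprf). Across all genes tested, 17.0% were higher and 20.6% lower. Any link between a member and its neighbours was not tested. The second probe set of Cdk7, which differed in direction from the first, was likewise looked up after the values were seen.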
